A study of Rattus norvegicus with 6 samples.

Results

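The 10 genes described here encode the non-fibrillar and fibril-associated collagens of cartilage and annulus: Col6a1, Col6a2 and Col6a3 for type VI, Col9a1, Col9a2 and Col9a3 for type IX, and Col10a1, Col12a1, Col14a1 and Col16a1 for the types of the same numbers. They were taken by gene name from a table of 30562 rat genes counted in 6 libraries of tail disc RNA. Each name was found once, and all 10 passed the filter on low counts. The discs were from male Sprague-Dawley rats and had been punctured with a needle. By the paper the rats were 12 weeks old at puncture. The 3 Control libraries came from discs given PBS, and the other 3 carry the label AF-PTK@LEV@SPP1 and are called the labelled libraries below. AF-PTK@LEV@SPP1 is a hybrid of synthetic lipid particles and outer membrane vesicles of a detoxified bacterium, with a peptide for the annulus fibrosus on a linker cut by reactive oxygen species and an siRNA against Spp1. Each injection held 10 μL at 1 mg/kg of siRNA, starting 24 h after surgery, and the paper describes treatment lasting 8 weeks. The sample records differ from this and name untreated controls, 14 days of treatment and sorted macrophages of mice, whereas the table holds rat genes and Col1a1 alone took 4.70% of the counts.

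Collagens of these types do not build the thick fibrils of the disc themselves. Type VI forms beaded filaments around cells. Type IX sits on the surface of type II fibrils in cartilage. Type X is made by hypertrophic chondrocytes, the enlarged cells of cartilage that is about to mineralize. Types XII and XIV decorate type I fibrils in tendon, ligament and annulus, and type XVI is a further member of the fibril-associated family.

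The Control libraries held 17942989, 16565291 and 17489851 counts, and the labelled libraries 17074981, 15560728 and 17855184. At that depth 3 counts, taken as the smallest measurable level, were 0.167 to 0.193 CPM (counts divided by the library total and put on one scale), a limit that covers counting error alone. The siRNA's target Spp1 stood at 8114, 4408 and 4414 normalized CPM (CPM after trimmed-mean scaling) in Control replicates 1 to 3 and at 8047, 6893 and 8451 in the labelled libraries. The target was thus not lower under the label (log2 fold change 0.31, SE 0.37, edgeR adjusted p = 0.628). Without Control replicate 1 its log2 fold change was 0.81. The paper's materials describe the siRNA as one against the mouse gene, while these libraries are from rats. Its match to rat Spp1 was not tested here. The table heads its columns IVD and AFPTK with a number, and they were matched to the Control and the labelled samples by group and number, since the sample titles are worded otherwise. Of the 4 genes that the paper marks as decreased in its volcano plot of this sequencing, Nos2, Ccl2, Il6 and Mmp13, all were lower under the label and passed in edgeR (log2 fold changes -6.50, -5.20, -5.36 and -2.92). Those calls were lost without labelled replicate 2 and without labelled replicate 3, that of Il6 also in limma-voom, and those of Il6 and Mmp13 also without labelled replicate 1. Of the 4 marked as increased, Pparg, Fabp4 and Lpl were higher without passing (1.39, 1.97 and 1.30; 2.17, 3.48 and 2.51 without Control replicate 1), with Pparg and Fabp4 passed in DESeq2 and Pparg also with 6 libraries kept. Nfkbia, which the paper names in both directions, was lower and passed (-1.30), a call lost without labelled replicate 2 and without labelled replicate 3. That plot was drawn from these libraries, so it is no separate measure of the label, and every direction below is between labels. Apart from the sequencing, the paper describes less MMP13 and iNOS staining in discs given AF-PTK@LEV@SPP1 than in discs given PBS. Mmp13 and Nos2, the gene of iNOS, were also lower under the label here.

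Control replicates 2 and 3 were near-identical. Their counts gave a chi-square statistic of 1.33 per gene against pure counting noise, and 16 of 14393 genes differed, while the other pairs within a group gave 51.3 to 106.6. They were summed and counted as 1 sample, so that means and SD are over 2 Control samples and 3 labelled samples. Control replicate 1 stood apart from that pair in every collagen described here. It had 1.36 to 1.77 times the pair's level of the type IX chains and 1.82 times its Col10a1, but 0.462 to 0.493 times its type VI chains, 0.487 times its Col16a1, 0.346 times its Col14a1 and 0.332 times its Col12a1.

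None of the 10 collagens passed at an adjusted p under 0.05 in edgeR's quasi-likelihood test, adjusted over 15537 genes, of which 1.13% passed as higher and 2.57% as lower in the labelled libraries. Their fitted level was lower under the label in 9 of 10, and Col6a1 stood at a log2 fold change of 0.02. The median over all genes tested was 0.05, and the share of them below 0 was not counted. Chains of a type ran together over the distinct samples (Pearson r 0.954 to 0.996 for type IX, 0.847 to 0.982 for type VI). The 10 are thus not separate results. The number lower was 8 without labelled replicate 2 and 10 in DESeq2. At an unadjusted p under 0.05 there were 2, Col12a1 and Col9a3, where 25.4% of all genes reached that level. DESeq2 on the same samples passed those 2 genes, limma-voom passed 0, and edgeR with the Control pair kept as 2 libraries passed Col12a1. Over all 15537 genes, DESeq2 passed 1132 as higher and 1440 as lower, and limma-voom 139 and 315. With the pair kept, edgeR passed 1233 and 1494 of 15042. In 3 of the 10, Col9a2, Col9a3 and Col12a1, each labelled library lay under every Control library, as did 20.1% of all genes; 0 of the 10 lay above, as did 21.8%. Without replicate 2 or without replicate 3 of the labelled libraries, edgeR passed 0 genes in the whole table, with 3109 and 2699 at an unadjusted p under 0.05, and without Control replicate 1 it passed 65 as higher and 215 as lower. No exact permutation test of 3 samples against 2 can give a p under 0.1.

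**Figure D1:**
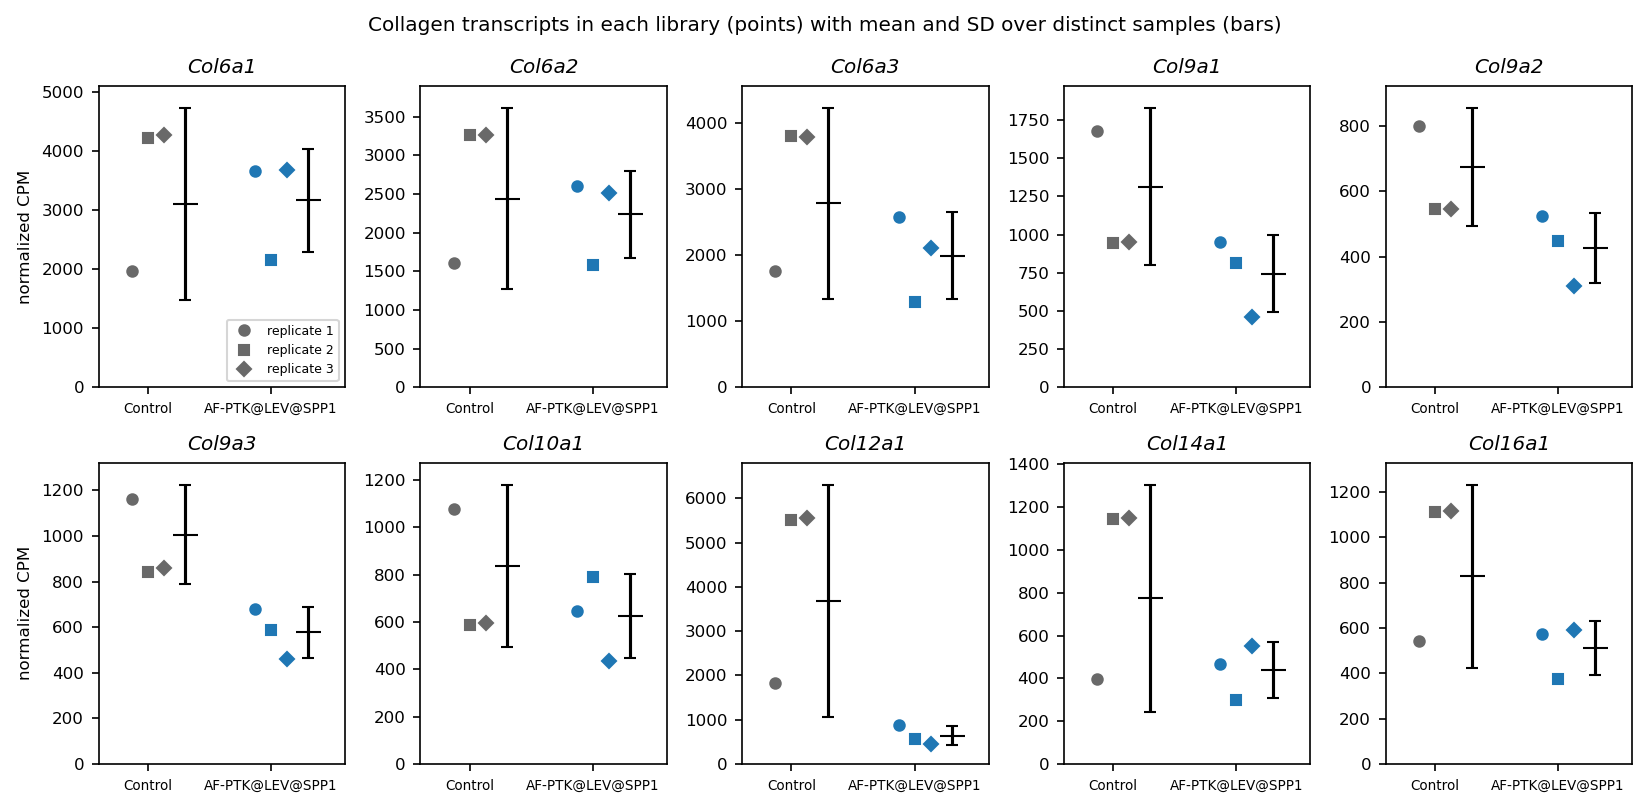
Normalized CPM of the 10 collagen genes in each library (circle, square and diamond for replicates 1 to 3; grey for Control, blue for AF-PTK@LEV@SPP1), with the mean and SD over distinct samples as black bars, Control 2 and 3 counted as 1. Control replicates 2 and 3 lie on each other in each panel, and Col12a1 runs from 5519 and 5560 in that pair to 456 in labelled replicate 3.

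Among the collagens that decorate type I fibrils, Col12a1 (ENSRNOG00000058470, chr8:80547593-80665686, minus strand, as in the count table, whose genome build is not given) showed the widest gap. Its level was 1838, 5519 and 5560 normalized CPM in Control replicates 1 to 3 and 874, 574 and 456 under the label. All 3 labelled libraries were under the lowest Control library, although Control replicate 1 lay far below the other Control libraries. The means were 3689 ± 2618 (SD, n = 2) and 634.5 ± 215 (SD, n = 3). The fitted level was 5.85-fold lower (log2 fold change -2.55, SE 0.55, 95% interval -3.94 to -1.16), and the edgeR adjusted p was 0.0728. It stood at position 167 from the lowest log2 fold change of 15537. The adjusted p was 0.0179 with the Control pair kept as 2 libraries and 4.67e-05 in DESeq2, and it ran from 4.67e-05 to 0.225 over the 17 alternatives. Without Control replicate 1 the log2 fold change was -3.14 (adjusted p = 0.0524).

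Col14a1 (ENSRNOG00000026415, chr7:86722094-86937214, plus strand), which like Col12a1 binds fibril-associated proteoglycans such as decorin, had 398, 1146 and 1151 normalized CPM in Control and 467, 299 and 552 under the label. Control replicate 1 lay inside the labelled range and the pair above it. The log2 fold change was -0.83 (SE 0.50, edgeR adjusted p = 0.354). Col16a1 (ENSRNOG00000031475, chr5:142388426-142442825, plus strand) had the same layout, with 542, 1110 and 1117 in Control and 572, 376 and 591 under the label. Its log2 fold change was -0.70 (SE 0.37, edgeR adjusted p = 0.301). Without Control replicate 1 the log2 fold changes were -1.40 for Col14a1 and -1.13 for Col16a1, and neither passed.

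The type VI chains assemble into one molecule, and their levels were laid out over the libraries in a similar way. Col6a1 (ENSRNOG00000001249, chr20:11905957-11924597, plus strand) had 1964, 4229 and 4276 normalized CPM in Control and 3667, 2166 and 3687 under the label. Col6a2 (ENSRNOG00000001254, chr20:12021767-12057564, plus strand), on the same chromosome, had 1610, 3270 and 3263 against 2609, 1589 and 2514. Col6a3 (ENSRNOG00000019648, chr9:91361583-91439471, minus strand), the largest chain, had 1764, 3803 and 3788 against 2582, 1292 and 2102. In all 3 genes Control replicate 1 and labelled replicate 2 were low and the groups overlapped. The log2 fold changes were 0.02 (SE 0.44) for Col6a1, -0.13 (SE 0.41) for Col6a2 and -0.49 (SE 0.45) for Col6a3, with edgeR adjusted p = 0.981, 0.861 and 0.535. The direction of Col6a1 flipped with DESeq2's and RLE scaling, where it was -0.0031. Without Control replicate 1 the log2 fold changes were -0.44 for Col6a1, -0.56 for Col6a2 and -0.95 for Col6a3. That of Col6a3 was -0.75, -0.25 and -0.53 without labelled replicates 1, 2 and 3 in turn.

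The chains of type IX lay lower under the label without passing. Col9a1 (ENSRNOG00000012920, chr9:26585034-26668213, plus strand) had 1676, 946 and 952 normalized CPM in Control and 952, 815 and 464 under the label, where replicate 1 reached the level of the Control pair. Col9a2 (ENSRNOG00000011502, chr5:134607616-134624677, plus strand) had 801, 547 and 545 against 523, 447 and 312. Col9a3 (ENSRNOG00000009531, chr3:167711840-167734465, plus strand) had 1161, 843 and 861 against 680, 589 and 461. For Col9a2 and Col9a3 each labelled library was under each Control library. The log2 fold changes were -0.83 (SE 0.40) for Col9a1, -0.66 (SE 0.29) for Col9a2 and -0.81 (SE 0.24, 95% interval -1.43 to -0.19) for Col9a3, with edgeR adjusted p = 0.261, 0.228 and 0.128. DESeq2 gave Col9a3 an adjusted p of 0.0148, in a range of 0.0148 to 0.315 over the 17 alternatives. Without Control replicate 1 the log2 fold changes were -0.37 for Col9a1, -0.37 for Col9a2 and -0.58 for Col9a3. In bulk RNA fewer cells of a type and less RNA per cell cannot be told apart. Chondrocyte markers went both ways, with 8 of 14 above 0 and 6 below. Chad and Sox6 passed as higher (log2 fold changes 2.93 and 1.57), while Hapln1, Matn3 and Epyc (-0.62, -1.24 and -1.09; -0.33, -1.18 and -1.17 without Control replicate 1) were lower in each labelled library than in any Control library without passing in edgeR. The part of these cells in the type IX levels was not tested.

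Col10a1 (ENSRNOG00000051399, chr20:38182494-38189494, plus strand) had 1079, 588 and 597 normalized CPM in Control and 648, 789 and 436 under the label, so that the groups overlapped. Its log2 fold change was -0.43 (SE 0.36, edgeR adjusted p = 0.498), and without Control replicate 1 it was 0.058. Col10a1 overlaps Nt5dc1, a gene on the opposite strand with 244 to 358 counts a library against 7650 to 21025 for Col10a1, and since the use of strand in counting is not given in the sources used here, their reads cannot be fully separated. Col6a2 overlaps Ftcd (9 to 23 counts) on the opposite strand and Col9a2 overlaps Rims3 (0 to 3 counts) on its own.

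Ratios of counts within a library need no scaling between libraries. Their absolute size also reflects transcript length, so only their differences between libraries are read here. For Col6a3 over Col6a1 the log2 ratio was -0.15, -0.15 and -0.17 in Control and -0.51, -0.75 and -0.81 under the label. Control replicate 1 lay with the pair here, unlike in its levels, and the groups were apart by -0.53 (means -0.16 ± 0.0060, SD, n = 2, and -0.69 ± 0.16, SD, n = 3). Col6a2 over Col6a1 differed by -0.16. The ratios of Col9a2 and Col9a3 to Col9a1 overlapped between the groups and differed by 0.16 and 0.02. Neither difference was steady, with 0.03 and -0.16 without Control replicate 1 and 0.07 and -0.13 without labelled replicate 3.

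Against their fibril partners, the ratio of Col12a1 to Col1a1 was -4.12, -3.02 and -3.02 in Control and -6.20, -6.32 and -6.81 under the label, a difference of -2.88. Col14a1 over Col1a1 differed by -1.16. Col16a1 was set against Col1a1 as well, though type XVI was not taken here as a partner of type I fibrils, and differed by -1.12. Col1a1 itself stood at 31887, 44697 and 45021 normalized CPM in Control and at 64018, 45894 and 51196 under the label, without passing (log2 fold change 0.48, SE 0.50, edgeR adjusted p = 0.582; 0.24 without Control replicate 1 and 0.30 without labelled replicate 1). With Control replicate 1 left out the differences of Col12a1, Col14a1 and Col16a1 over Col1a1 were -3.42, -1.68 and -1.39. Col14a1 over Col12a1 went the other way, from -2.21, -2.27 and -2.27 to -0.90, -0.94 and 0.28. Col9a1 over Col2a1, the type II chain, was -3.05, -4.48 and -4.46 in Control and -4.77, -4.64 and -6.11 under the label, and Col10a1 over Col9a1 was higher by 0.43. The difference of Col9a1 over Col2a1 was -1.41, and -0.70 without Control replicate 1. In 8 of the 12 ratios the groups did not overlap. Among single genes, 21.8% lay higher and 20.1% lower under the label without overlap. Many of the ratios share a gene, such as Col1a1 or Col9a1, so they are not separate results. The exact permutation p over the distinct samples was 0.1, the smallest it can be, in 7 of the 12 ratios. After Benjamini-Hochberg adjustment over the 12 it was 0.171, so none passed.

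**Figure D2:**
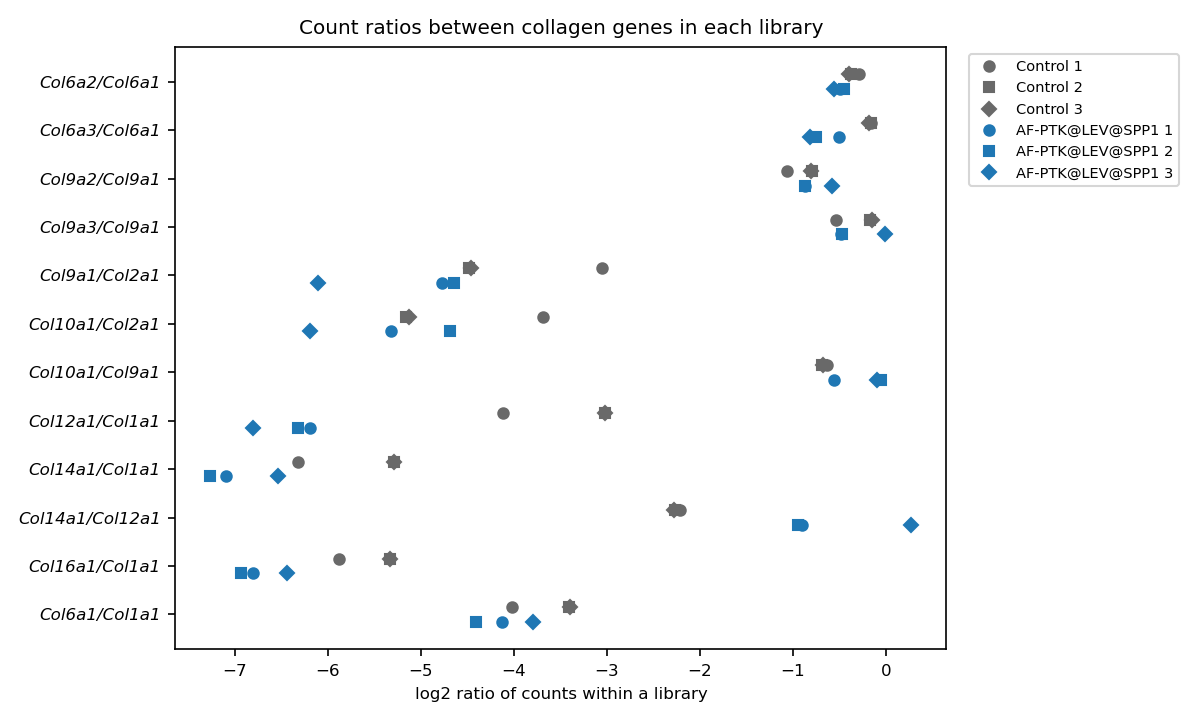
Log2 ratio of counts between 2 collagen genes within each library, 1 row per ratio, grey for Control and blue for AF-PTK@LEV@SPP1, with symbols for the replicates. For Col6a3 over Col6a1 and Col14a1 over Col12a1 the 3 Control libraries lie close together and apart from the labelled ones, while for Col9a1 over Col2a1 Control replicate 1 lies apart from its group.

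Other non-fibrillar and fibril-associated collagens split by direction. Of 22 tested, 2 passed as higher and 2 as lower, where 1.13% and 2.57% of all genes did. The median log2 fold change was 0.06 beside 0.05 over all genes. That median was 0.27 without Control replicate 1 and with the replicate block, 0.31 in limma-voom and -0.04 without labelled replicate 1. Over all genes DESeq2 passed 1132 as higher and 1440 as lower of 15537. The fit with 6 libraries kept passed 1233 and 1494 of 15042. The counts in this list were 6 and 6 in DESeq2, 7 and 6 with 6 libraries kept, and 1 and 1 in limma-voom. They were 4 and 3 with upper-quartile factors, library totals or a minimum count of 50, and 3 and 3 with no filter. With RLE factors they were 2 and 3, with the replicate block 1 and 3, and in the robust fit 1 and 2. They were 0 and 4 without Control replicate 1, and 3 and 2 without Control replicate 2 or 3. Col4a1, a basement membrane chain, fell from 1024, 1492 and 1515 normalized CPM in Control to 490, 531 and 538 under the label (log2 fold change -1.29, SE 0.22, edgeR adjusted p = 0.0475). Col18a1, whose tail is the source of endostatin, fell from 206, 329 and 332 to 91.0, 77.6 and 94.5 (log2 fold change -1.62, SE 0.23, edgeR adjusted p = 0.0372). Col4a6, the chain of a specialized basement membrane network, rose from 1.33, 3.02 and 2.99 to 23.6, 11.6 and 17.0 (log2 fold change 2.97, SE 0.50, edgeR adjusted p = 0.0476). The remaining one, Col23a1, a transmembrane collagen named after its value was seen, rose from 0.513, 0.257 and 0.366 to 2.94, 2.77 and 2.96 (log2 fold change 2.81, SE 0.37, edgeR adjusted p = 0.0317). Each of these 4 calls was lost with any 1 labelled library left out. Those of Col4a6 and Col23a1 were lost without Control replicate 1 too (adjusted p = 0.0975 and 0.0577), that of Col4a6 in limma-voom (0.0641), the robust fit (0.0513) and the replicate block (0.0658), and that of Col4a1 in limma-voom (0.0512).

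Of the 11 fibrillar collagens, 1 passed as lower and 0 as higher, where 2.57% and 1.13% of all genes did. Their median log2 fold change was -0.81 beside 0.05 over all genes. With 6 libraries kept 4 passed as lower and 0 as higher, where 1494 and 1233 of 15042 genes did. In DESeq2 there were 4 and 1, where 1440 and 1132 of 15537 genes did. Col5a3, a chain of type V that joins other fibrils, fell from 251, 501 and 519 normalized CPM to 86.6, 87.5 and 86.8 (log2 fold change -2.14, SE 0.31, edgeR adjusted p = 0.0371), a call lost with any 1 labelled library left out. Col3a1 was 9226, 18137 and 18247 against 5926, 4696 and 6667, without passing. Col2a1 was 13858, 21110 and 20918 against 25938, 20347 and 31944 and overlapped.

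**Figure D3:**
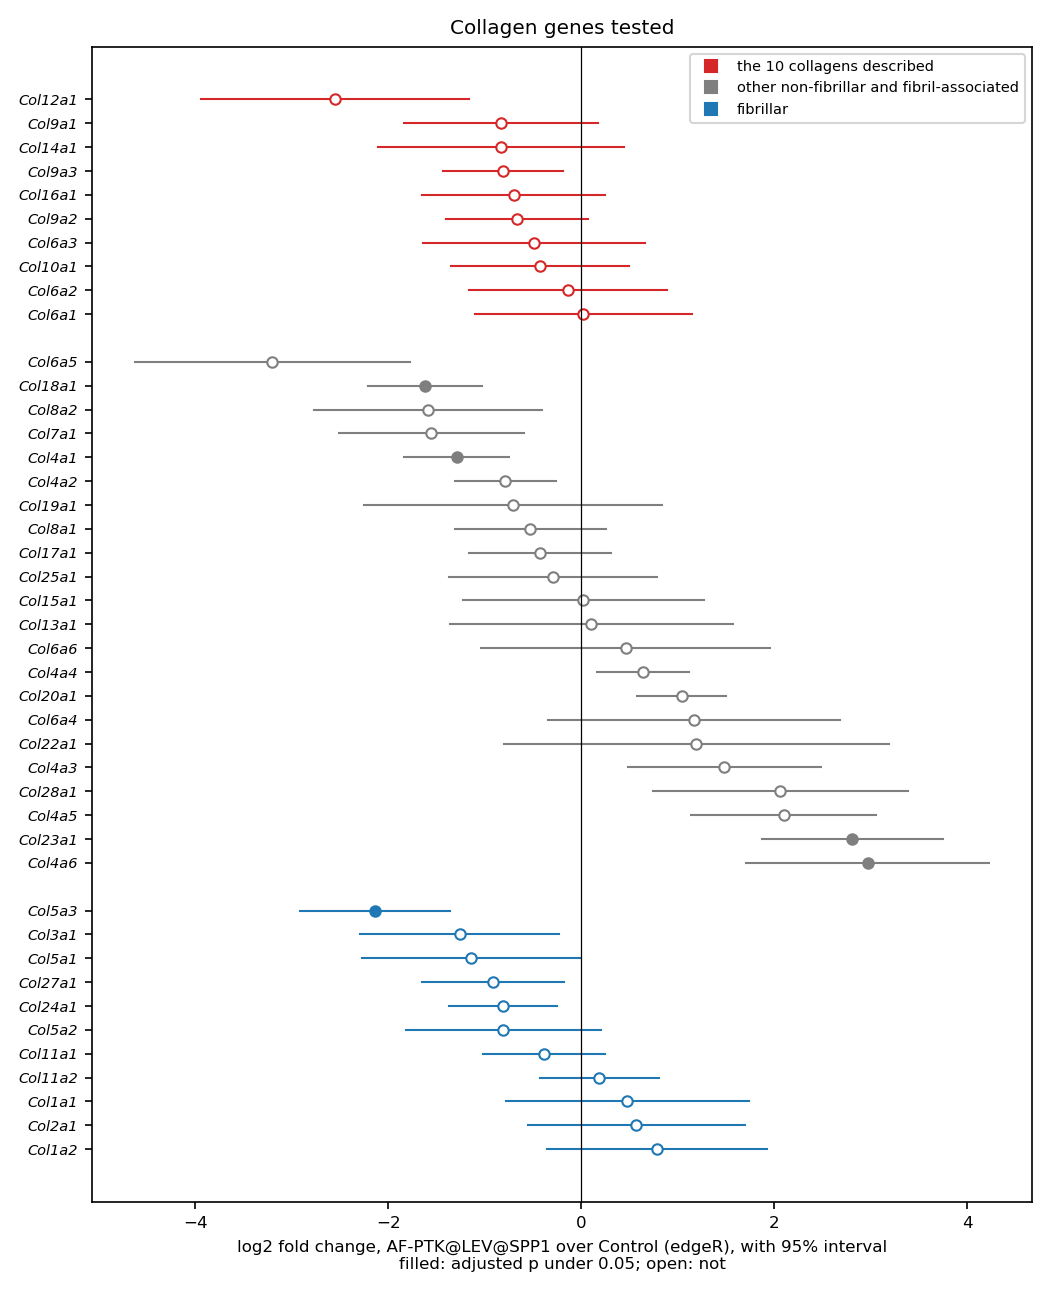
Log2 fold change of AF-PTK@LEV@SPP1 over Control for each collagen gene tested (points; filled where the edgeR adjusted p was under 0.05) with 95% intervals, for the 10 genes described (red), the other non-fibrillar and fibril-associated collagens (grey) and the fibrillar collagens (blue). Col12a1 stands at -2.55 and Col6a1 at 0.02, and no red point is filled.

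Matrix partners and receptors of these collagens passed as lower in 4 of 24 and as higher in 1, where 2.57% and 1.13% of all genes did. Their median log2 fold change was -0.47 beside 0.05 over all genes, and -0.715 without labelled replicate 1. In DESeq2 and with 6 libraries kept 9 of the list passed as lower and 2 as higher. Over all genes DESeq2 passed 1440 as lower and 1132 as higher of 15537. The fit with 6 libraries kept passed 1494 and 1233 of 15042. Lum, a small proteoglycan on collagen fibrils, fell from 2472, 5917 and 5949 normalized CPM to 324, 444 and 436 (log2 fold change -3.40, SE 0.43, edgeR adjusted p = 0.0303). Matn4, a matrilin of the kind that links type VI filaments to other matrix, fell from 57.4, 86.7 and 89.4 to 5.23, 4.22 and 2.90 (log2 fold change -4.15, SE 0.32, edgeR adjusted p = 0.0155). The others that fell were Itga11, an integrin chain that binds fibrillar collagen, and Antxr2, a receptor that takes up type VI collagen, both named after their values were seen. Itga10, the collagen-binding integrin chain of chondrocytes, rose from 64.5, 68.3 and 67.4 to 141, 129 and 131 (log2 fold change 1.01, SE 0.11, edgeR adjusted p = 0.0231). Fn1, Dcn, Bgn and Fmod, the most abundant of the list, did not pass. Each of these 5 calls was lost without labelled replicate 2 and without labelled replicate 3, those of Lum, Itga11 and Itga10 also without labelled replicate 1, and that of Itga10 also without Control replicate 1.

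Disc tissue holds several cell types. The marker lists below are given by their counts and sums, with no test of a joint change with the collagens. Over all genes tested in edgeR, 1.13% passed as higher and 2.57% as lower. Among 14 chondrocyte markers (summed level 19939, 28465 and 28334 normalized CPM in Control, 39201, 27886 and 43450 under the label, most of it Col2a1) 2 passed as higher, Chad and Sox6, and 0 as lower. Both calls were lost with any 1 labelled library or Control replicate 1 left out, and 1 of the 2 with the replicate block, while in DESeq2 and with 6 libraries kept Matn3 also passed as lower. Of 10 hypertrophic chondrocyte markers, led by Spp1, 1 passed as lower, the collagenase Mmp13, and the sum was 17725, 10815 and 10797 against 10199, 9733 and 10070, with Control replicate 1 highest as for types IX and X. Their median log2 fold change was -0.51, and 0.07 without Control replicate 1. The osteoblast and osteocyte markers, with Bglap highest by mean normalized CPM and Dmp1 by mean log2 CPM, summed to 1749, 213 and 217 against 1153, 1689 and 1192 with 0 of 8 passed. The median log2 fold change of that list was 0.16, with 1.97 without Control replicate 1 and 1.07 with the replicate block. Fibroblast markers, led by Dcn, summed to 8520, 17201 and 17221 against 5098, 4632 and 6680, and 1 of 8, Lum, passed as lower. That sum was carried by Dcn and Lum. Without overlap of the libraries, 3 of 8 stood higher under the label and 3 lower, where 21.8% and 20.1% of all genes did. Those higher were Pi16, Dpp4 and Clec3b, which did not pass, and those lower were Lum, Dcn and Pdgfra. Within Control, Pi16, Dpp4, Clec3b and Dpt were highest in replicate 1. The median log2 fold change of the list was 0.28, with 0.47 without labelled replicate 2 and 0.14 without labelled replicate 3. In that list 1 passed as higher and 2 as lower in DESeq2 and with 6 libraries kept, and 0 and 2 with library totals. Annulus and tendon markers, led by Fmod, summed to 3306, 7692 and 7708 against 6434, 4222 and 6608 with 0 of 8 passed and 1 as higher in DESeq2. Their median log2 fold change was 0.19, and -0.12 without Control replicate 1. It was -0.035, 0.296 and 0.041 without labelled replicates 1, 2 and 3 in turn. The part of these cells in the collagen levels was not tested.

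For cells outside the matrix-forming lineages, macrophage markers led by Csf1r summed to 1053, 674 and 672 normalized CPM in Control and 366, 625 and 500.5 under the label. Cd68 passed as lower, 1 of 8 tested, where 2.57% of all genes did, with Marco at 0 in every library. Cd163 went the other way without passing, from 54.0, 29.5 and 29.0 to 47.1, 142 and 88.2 (log2 fold change 1.15, SE 0.53). Each other marker tested had a lower fitted level under the label. The calls of Cd68, and of Mmp13 and Lum above, were lost with any 1 labelled library left out, and that of Cd68 without Control replicate 1 too. DESeq2 passed 3 macrophage markers as lower, and edgeR passed 2 with 6 libraries kept and 2 with no filter. The lists that follow had 0 genes passed in edgeR on the 5 distinct samples. Nucleus pulposus and notochord markers, led by Cd24, summed to 840, 408 and 402 against 4281, 1540 and 1829, with Noto at 0. Adipocyte markers, led by Fabp4, summed to 498, 92.1 and 94.0 against 1083, 1737 and 805. Skeletal muscle markers, led by Acta1, summed to 977, 1265 and 1272 against 942, 9798 and 2587, and erythroid markers, led by Hba-a1, to 2375, 3183 and 3274 against 2498, 20419 and 14028, both high in labelled replicate 2. Neutrophil markers, led by S100a9, summed to 1110, 179 and 168 against 281, 2672 and 3694. Endothelial markers, led by Pecam1, summed to 498, 601 and 584 against 375, 437 and 434, mural and smooth muscle markers, led by Acta2, to 542, 622 and 628 against 1263, 729 and 651, and Schwann cell markers, led by S100b, to 293, 273 and 254 against 468, 957 and 1289. Pax7 of the muscle list and Ltf of the neutrophil list had at most 3 counts in any library. The part of these cells was not tested either.

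Calls in these lists depended on the setting, as did those over all genes. DESeq2 passed 1132 of all 15537 genes as higher and 1440 as lower. The fit with 6 libraries kept passed 1233 and 1494 of 15042, and the replicate block 307 and 434 of 15042. Without labelled replicate 1 there were 30 and 83 of 15363, and with no filter 189 and 510 of 22112. DESeq2 passed as higher 5 of 7 adipocyte, 5 of 6 Schwann cell, 4 of 8 nucleus pulposus and notochord and 3 of 6 erythroid markers, and as lower 2 of 6 endothelial and 1 nucleus pulposus and notochord marker. With 6 libraries kept, 2 adipocyte, 4 Schwann cell and 2 nucleus pulposus and notochord markers passed as higher, and 3 endothelial and 1 nucleus pulposus and notochord marker as lower. With the replicate block, 4 nucleus pulposus and notochord markers passed as higher and 1 as lower. Without labelled replicate 1, 3 Schwann cell and 1 erythroid marker passed as higher and 1 nucleus pulposus and notochord marker as lower, and with no filter 1 of that list passed as lower. Skeletal muscle, neutrophil, and mural and smooth muscle markers had 0 passed in each of the 17 alternatives.

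Likeness of profile was taken as Pearson r of log2 CPM over the 5 distinct samples among 10023 expressed genes outside the collagens, as a description. Type VI, as the mean of its chains, was most like Bmal1 (r = 0.9995), Bles03 (0.9975) and Pxylp1 (0.9962). Type IX was most like an unnamed gene (ENSRNOG00000062694, r = 0.9988), Chst11 (0.9983) and Mterf4 (0.9958). Col10a1 was nearest to Yeats4 (r = 0.9939), Entpd4 (0.9915) and Tox4 (0.9878). Col12a1 was nearest to Rnf41 (r = 0.9980), Kctd10 (0.9978) and Gars1 (0.9974), Col14a1 to Entrep3 (0.9966), Dpysl3 (0.9961) and Rnf144b (0.9957), and Col16a1 to Cnih4 (0.9994), P3h4 (0.9976) and Ssc5d (0.9974). With 5 points, 2 to 24 genes exceeded an r of 0.99 for each type.

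Col9a1, Col9a2 and Col10a1 had Control replicate 1 highest and labelled replicate 3 lowest, as did Col9a3. Between these extremes they differed, as labelled replicates 1 and 2 lay above the Control pair for Col10a1 and below it for Col9a2. The promoters of Col9a1, Col9a2 and Col10a1 are shown for the shared extremes. They run from 250 bases before to 50 after the start in RefSeq's GRCr8 table, which held 6 of the 10 genes. Capitals mark matches on either strand to the TATA box (TATAAA), the CCAAT box (CCAAT) and the GC box (GGGCGG), found in 14.2%, 37.5% and 33.1% of 33469 promoters of 300 bases. The 3 promoters shown lie at chr9:34081114-34081413, chr5:139892548-139892847 and chr20:39737286-39737585, all on the plus strand. Col10a1 holds 1 TATA box and 1 CCAAT box, and these letters are not in the windows of Col9a1 and Col9a2.
Col9a1: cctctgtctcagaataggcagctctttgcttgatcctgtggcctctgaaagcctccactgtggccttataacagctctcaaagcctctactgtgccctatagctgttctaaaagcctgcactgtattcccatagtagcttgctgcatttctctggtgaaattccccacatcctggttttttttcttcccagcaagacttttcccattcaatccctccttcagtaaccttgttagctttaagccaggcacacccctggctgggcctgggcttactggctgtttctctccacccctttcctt
Col9a2: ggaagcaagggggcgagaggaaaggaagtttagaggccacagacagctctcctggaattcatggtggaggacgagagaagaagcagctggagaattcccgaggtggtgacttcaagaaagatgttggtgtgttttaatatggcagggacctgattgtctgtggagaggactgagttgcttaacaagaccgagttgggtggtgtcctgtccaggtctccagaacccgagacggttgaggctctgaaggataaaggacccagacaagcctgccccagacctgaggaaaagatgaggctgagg
Col10a1: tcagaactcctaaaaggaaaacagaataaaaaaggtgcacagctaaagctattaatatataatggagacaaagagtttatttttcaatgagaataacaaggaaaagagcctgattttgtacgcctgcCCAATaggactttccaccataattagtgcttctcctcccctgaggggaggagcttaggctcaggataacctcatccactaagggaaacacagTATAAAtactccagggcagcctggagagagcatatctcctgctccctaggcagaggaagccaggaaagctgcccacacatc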

How the data were processed

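RNA was sequenced from tail disc tissue of rats, with 3 libraries for each of 2 labels. The authors deposited counts, whole numbers of reads per Ensembl gene, without normalization. The submitters' processing notes name FastQC, Trimmomatic, HISAT2, featureCounts and DESeq2, and a mouse build that the rat identifiers go against; the build of the coordinates is not given in the sources used here. The fit used edgeR 4.0.16 under R 4.3.3 (trimmed mean of M-values, filterByExpr at its minimum count of 10, quasi-likelihood test, Benjamini-Hochberg adjustment over all genes tested). Control replicates 2 and 3 were summed as 1 sample, because counting a near-identical library again makes the spread look smaller. A gene passed at an adjusted p under 0.05. Log2 CPM used a prior count of 2. Exact permutation tests were two-sided. By the paper the rats of a group were separate animals.

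The members and the lists were chosen with earlier results of these data known. Named genes were the 10 collagens, Spp1, genes the paper marks in its volcano plot, genes of the ratios and the most similar profiles. From the lists they were the extreme passed genes and, by mean log2 CPM, the top 4 of the pathway lists and the top gene of each marker list. Genes that overlap a collagen and list genes with at most 3 counts in any library were named as well. Hapln1, Matn3, Epyc, Pi16, Dpp4, Clec3b, Pdgfra, Dpt, Bglap and Cd163 fall outside these rules. They were named after their values were seen, as were Col23a1, Itga11 and Antxr2. Alternatives were DESeq2 1.42.0, limma-voom (limma 3.58.1), other scalings and filters, a robust fit, a fold threshold, 6 separate libraries with and without the replicate block, and each library left out. The fits were tested on simulated data. Proteins, histology and cell experiments were not analysed here.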

Additional observations from a re-analysis of the deposited data

How the results depend on the processing

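The collagens passed under the alternatives were 0 as higher throughout and, as lower, 1 with 6 libraries kept, 2 in DESeq2 and 0 otherwise (0 to 0 with a library left out). Over all genes 1233 passed as higher and 1494 as lower with 6 libraries kept, and 1132 and 1440 in DESeq2, beside 175 and 400; the cause was not tested, though the 6-library fit counts the near-identical pair as separate. With 1 library left out, 0 to 170 passed as higher and 0 to 396 as lower. Without Control replicate 1 (65 and 215) a lone Control sample is assumed to vary like the labelled ones, without labelled replicate 1 they were 30 and 83, and without labelled replicate 2 or 3 they were 0.

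With a replicate block on 6 libraries, 307 passed as higher and 434 as lower. Libraries sharing a number did not deviate together (r = -0.32, -0.27 and -0.08 for numbers 1 to 3), so the numbers were not read as pairs, and the block passed 0 of the 10 collagens.

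Of the genes followed singly, which were not all genes of the lists, the log2 fold change crossed 0 in 7, none of which passed. Col6a1 (0.02) was -0.14 with 6 libraries kept, -0.096 with the block, -0.0031 in DESeq2 and with RLE factors, -0.029 with no filter, and -0.44 to 0.24 with a library left out (-0.44 without Control replicate 1, -0.13 without labelled replicate 1 and -0.096 without labelled replicate 3). Col15a1 (0.02) was -0.17, -0.11, -0.0025, -0.0025 and -0.029 under the same settings and -0.51 to 0.27 with a library left out (-0.51, -0.15 and -0.12). Col6a2 (-0.13) was -0.56 to 0.067, Col10a1 (-0.43) was -0.63 to 0.058 and Acta2 (0.62) was -0.11 to 0.89 with a library left out. Bgn (-0.08) was 0.0035 in limma-voom and -0.44 to 0.051 with a library left out. Dmp1 (-0.35) was 0.036 with 6 libraries kept, 0.47 with the block and -0.73 to 1.35 with a library left out. The cause was not tested. Of the 10 collagens, the 7 other than Col6a1, Col6a2 and Col10a1 kept their sign in all 17 alternatives, with values that moved most without Control replicate 1 for types IX, XII, XIV and XVI and Col6a3. The lowest count of the 10 in any library was 4959, while Col23a1 and Col4a6 had as few as 4 and 26.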
